A study of Mus musculus with 6 samples.

Results

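Cytokines, chemokines, acute-phase proteins and the receptors and NF-kappaB proteins that control them were followed in the adipose tissue of mice, the offspring of mothers on different diets, at an age of 32 weeks. The list of 38 genes was given by name, and a gene counted as measured where a probe set of the array carried its symbol alone. This held for 35 of the 38 genes, among 22180 genes on the arrays, and each of the 35 had a single such probe set. Spp1 (osteopontin) and Nfkb1 were not analysed here because no probe set was named for them alone, and the Saa1 symbol stood only on a probe set shared with Saa2. There were 3 samples from offspring of dams on a chromium restriction diet and 3 from offspring of dams on a control diet. The sources used here do not give strain, sex, fat depot or the timing of the diets. Nor do they state whether each sample is a different animal or litter, and every p-value therefore reflects the spread among these samples, which may be technical. Each sample was hybridised to its own 1-colour array, and values are taken to be on a log2 scale, which was inferred from their range.

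Adipose tissue holds resident macrophages and lymphocytes beside its fat cells, and these cells speak to each other through small secreted proteins. Toll-like receptors and the receptors for tumour necrosis factor and interleukins release NF-kappaB from its inhibitor, which is encoded by Nfkbia, and NF-kappaB then switches on cytokine and chemokine genes. Chemokines draw leukocytes into tissue. Acute-phase proteins are plasma proteins whose synthesis, mainly in the liver, rises in inflammation, and several of them (serum amyloid A, haptoglobin, lipocalin 2, orosomucoid) are also made in fat.

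The 6 arrays differed in their content of other tissues, which bears on these genes. Hepatocyte markers stood highest on chromium restriction replicates 1 and 3: 9 of 10 markers lay above all other arrays there (8.31% of all genes did), Alb (albumin) was at 13.72 and 13.55, and it was at 9.17 on replicate 2 and at 9.37, 9.98 and 9.98 on the controls. Replicate 2 held the highest value of 9 of 11 T and NK cell markers, 7 of 8 B and plasma cell markers and 6 of 9 markers of the intestinal epithelium, where 12.9% of all genes were highest on that array. Control replicate 1 was rich in brown fat markers, with a list mean of 8.30 against 5.51 to 6.54 elsewhere, and held the lowest value of all 8 mesothelial markers. Fat cell markers were present on every array (7 measured markers, list mean 11.64 to 12.12). Neutrophil markers were dim throughout: 9 of 12 lay below the array median on all 6 arrays. Xist was at 10.07 to 10.56 on all arrays, while the Y-linked genes Eif2s3y, Kdm5d and Uty were at or below 5.20. In whole tissue, fewer cells of a type and less RNA per cell cannot be told apart.

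Promoters of 3 serum amyloid A genes and of Lcn2 are shown because Saa2 and Saa3 had different patterns across these arrays. Saa1 was not measured alone. Whether the promoter letters bear on the array values was not tested. Each stretch runs 5′ to 3′ along the gene's strand, from 250 bases before the start of transcription to 50 after it (RefSeq, GRCm38.p6). Capitals mark matches to a pattern of NF-kappaB sites (GGG, any 5 bases, CC) or to a pattern of C/EBP sites (TTGC, any 2 bases, AA), both searched on both strands. The stretches lie at chr7:46742931-46743230 (minus strand) for Saa1, chr7:46751583-46751882 (plus strand) for Saa2, chr7:46715627-46715926 (minus strand) for Saa3 and chr2:32387690-32387989 (minus strand) for Lcn2.
Saa1: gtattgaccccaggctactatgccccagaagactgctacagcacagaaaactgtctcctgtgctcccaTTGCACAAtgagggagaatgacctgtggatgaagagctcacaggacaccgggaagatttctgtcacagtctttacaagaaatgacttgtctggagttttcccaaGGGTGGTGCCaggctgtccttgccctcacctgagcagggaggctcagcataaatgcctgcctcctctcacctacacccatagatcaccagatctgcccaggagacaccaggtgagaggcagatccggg
Saa2: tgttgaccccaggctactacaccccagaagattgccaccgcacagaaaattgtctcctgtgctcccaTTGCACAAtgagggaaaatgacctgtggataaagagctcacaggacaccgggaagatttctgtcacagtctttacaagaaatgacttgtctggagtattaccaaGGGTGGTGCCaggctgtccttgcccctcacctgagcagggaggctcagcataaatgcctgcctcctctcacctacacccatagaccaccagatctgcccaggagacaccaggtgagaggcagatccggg
Saa3: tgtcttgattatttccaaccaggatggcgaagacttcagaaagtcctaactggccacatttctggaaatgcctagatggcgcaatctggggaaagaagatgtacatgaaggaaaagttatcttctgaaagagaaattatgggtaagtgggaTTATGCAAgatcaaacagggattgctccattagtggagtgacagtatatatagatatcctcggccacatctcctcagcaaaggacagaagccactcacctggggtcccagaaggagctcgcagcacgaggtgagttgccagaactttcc
Lcn2: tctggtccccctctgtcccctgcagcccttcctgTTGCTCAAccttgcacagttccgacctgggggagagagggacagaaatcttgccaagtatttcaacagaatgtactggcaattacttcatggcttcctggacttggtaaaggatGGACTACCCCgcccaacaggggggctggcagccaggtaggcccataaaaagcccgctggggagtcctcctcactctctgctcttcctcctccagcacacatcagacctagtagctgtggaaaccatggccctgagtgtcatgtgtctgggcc

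The Saa1 and Saa2 stretches were identical at 287 of 301 aligned positions (95.3%), whereas Saa2 and Saa3 were identical at 164 of 327 (50.2%). The NF-kappaB pattern was found once each for Saa1, Saa2 and Lcn2 and not within the Saa3 stretch, and the C/EBP pattern was found once in each of the 4. No match overlapped another. The promoter table held 30 stretches for 26 of the 38 genes. The NF-kappaB pattern was in 18 of these 30 (60.0%) and in 50.8% of all 32851 stretches, and the C/EBP pattern was in 8 of 30 (26.7%) and in 10.8% of all. A match is only a match of letters, and no binding was measured.

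None of the 35 genes differed between the diets at an adjusted p of 0.05 in limma (0 higher, 0 lower, smallest adjusted p = 0.628). Over all 22180 genes 0.194% were called, 0.0902% higher and 0.104% lower, and of those 43 genes 40 lay in probe sets whose deposited values carry extra digits, a feature of 0 of the 35. At an unadjusted p under 0.05, 3 of 35 genes were higher (Ccl7, Saa2 and Saa3) and 0 were lower, where 5.95% of all genes had such a p, 2.42% higher and 3.53% lower. The median log2 difference, chromium restriction minus control, was 0.087 over the 35 genes and -0.018 over all genes. By sign 23 of the 35 were higher and 12 lower, and of all 22180 genes 9572 were higher and 12602 lower. Groups did not overlap for 3 of 35 genes (Ccl7 and Saa3 higher, Tlr2 lower), against 9.6% of all genes, 3.53% higher and 6.06% lower.

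The precision of these differences was uneven. For 24 of 35 genes the 95% confidence interval of limma lay within 1 log2 unit of 0 on both sides; the other 11 include Cxcl13, Il33, Ccl5, Ccl8, Saa2 and Hp, whose arrays of the same group lay far apart. Genes near the floor of the array carry less information. No member lay below the lower quartile of all probe sets on all 6 arrays, but Il10 did on 5 of 6, and Tnf, Il10, Ccl3 and Cxcl5 lay below the array median (5.44 to 5.57) on all 6. Because the sources used here do not state a background level, folds are left out for genes below the median. On chromium restriction replicate 2, 23 of 35 genes lay within the range of the controls, 8 above it and 4 below it; over all genes 18.8% lay above it and 25.9% below it. Leaving out 1 array turned the sign for 15 of 35 genes, and for 30 of 35 it turned the sign or moved the difference by over 1.5 times. The other 5 were Ccl2, Ccl7, Mif, Saa2 and Saa3. For Saa2 the difference still ran from 1.30 to 2.88. Without chromium restriction replicates 1 and 3 the 5 differences were 0.35, 0.27, 0.12, 0.040 and 0.65, in that order. With all arrays they were 0.30, 0.48, 0.38, 1.93 and 0.65.

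**Figure D1:**
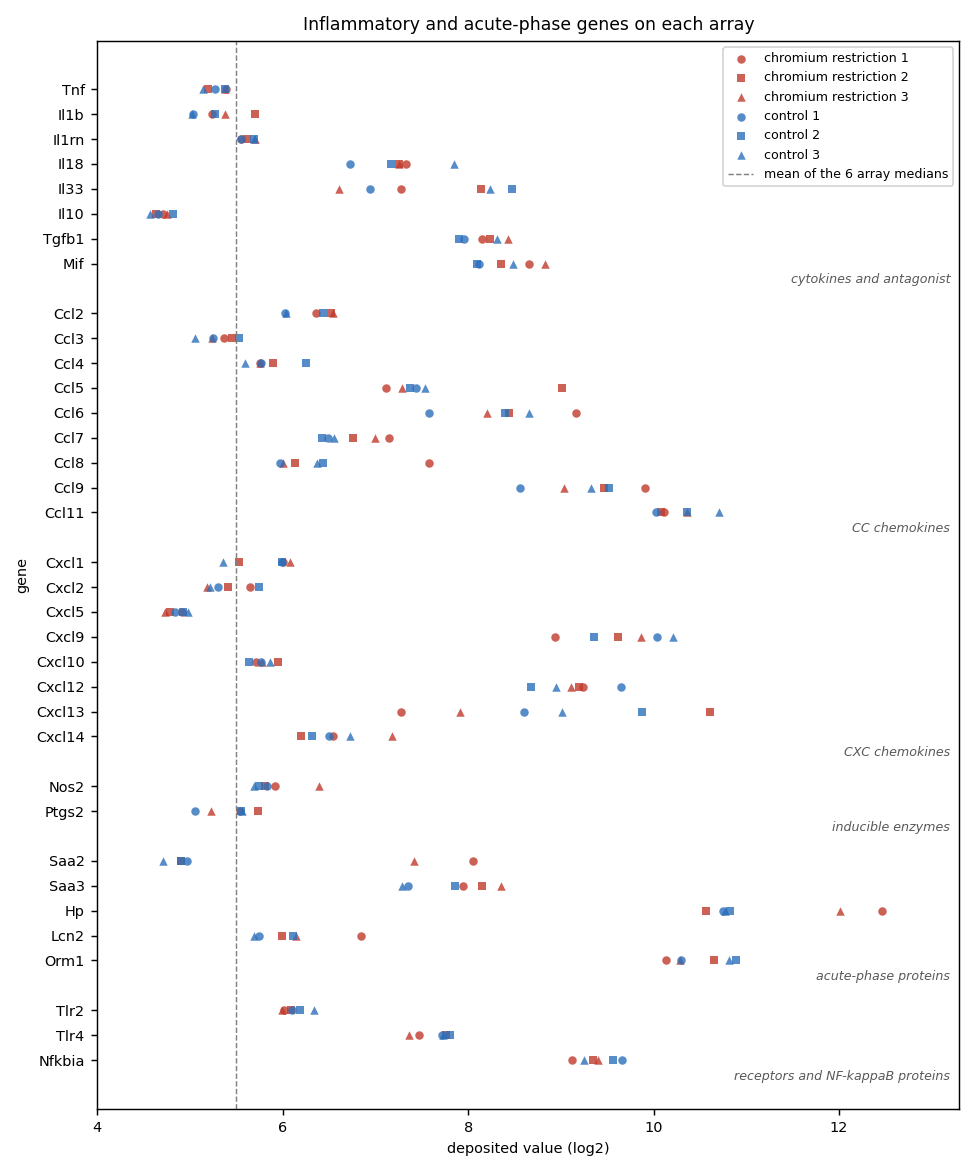
Deposited log2 value (horizontal axis) of each of the 35 measured genes (vertical axis, grouped by role) on each array; red symbols are chromium restriction replicates, blue symbols are controls, and symbol shape gives the replicate number. The dashed line is the mean of the array medians; Tnf, Il10 and Cxcl5 lie to its left on all arrays, and Saa2 and Hp split the chromium restriction arrays.

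Among the cytokines, 6 of 8 genes were higher and 2 lower by sign, with a median log2 difference of 0.042, and 0 of 8 passed the test. Tnf, which encodes tumour necrosis factor, was at 5.39, 5.19 and 5.37 on chromium restriction replicates 1, 2 and 3 and at 5.27, 5.38 and 5.14 on control replicates 1, 2 and 3. The groups overlapped and all 6 values were dim. The log2 difference was 0.054 ± 0.098 (SE, n = 3 per group, limma adjusted p = 0.991).

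Il1b, the gene of the NF-kappaB-driven cytokine interleukin 1 beta, was at 5.24, 5.70 and 5.37 on the chromium restriction arrays and at 5.03, 5.27 and 5.02 on the controls. Replicate 2 was the highest of the 6, and replicate 1 lay below control replicate 2. Only chromium restriction replicate 2 lay above its array median, and the other 5 values were dim. The difference was 0.33 ± 0.14 (SE, n = 3, adjusted p = 0.817). It was 0.20 without chromium restriction replicate 2 and 0.43 without replicate 1. Il1rn, whose product blocks the interleukin 1 receptor, was at 5.55, 5.61 and 5.70 against 5.55, 5.69 and 5.69. The groups overlapped, and the 95% confidence interval of the difference ran from -0.21 to 0.17.

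Il10, an anti-inflammatory cytokine gene, was at 4.71, 4.63 and 4.75 against 4.66, 4.82 and 4.57. All 6 values were close to the floor. Il33, an alarmin stored in nuclei of stromal and mesothelial cells, varied more within the groups than between them: 7.27, 8.14 and 6.61 on the chromium restriction arrays and 6.95, 8.47 and 8.24 on the controls. Chromium restriction replicate 3 and control replicate 1 were the lowest. Il18, a cytokine activated by the inflammasome, spread from 6.73 to 7.85 on the controls and from 7.25 to 7.33 on the chromium restriction arrays. Tgfb1 and Mif, the genes of transforming growth factor beta and macrophage migration inhibitory factor, differed by 0.22 ± 0.14 and 0.38 ± 0.16 (SE, n = 3, adjusted p = 0.907 and 0.817), with overlapping groups. For Mif the chromium restriction arrays were at 8.66, 8.35 and 8.83 and the controls at 8.11, 8.10 and 8.48.

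The CC chemokines, which attract mainly monocytes, eosinophils and T cells, were higher in 7 of 9 genes by sign, with a median log2 difference of 0.32, and 0 of 9 passed the test. Ccl7, a monocyte chemoattractant and ligand of Ccr2, was at 7.15, 6.76 and 6.99 on the chromium restriction arrays and at 6.49, 6.43 and 6.55 on the controls. Every chromium restriction array lay above every control. The difference was 0.48 ± 0.11 (SE, n = 3 per group), a 1.39-fold higher level, with an adjusted p of 0.628 (unadjusted p = 0.00521, limma). It ranged from 0.38 to 0.58 when any single array was left out. On replicate 2 alone, against the 3 controls, it was 0.27.

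Ccl2, which encodes the main monocyte chemoattractant of fat tissue, was at 6.35, 6.52 and 6.55 against 6.03, 6.44 and 6.04. Control replicate 2 lay among the chromium restriction arrays, so the groups overlapped. The difference was 0.30 ± 0.13 (SE, n = 3, adjusted p = 0.817), with a range of 0.23 to 0.44 over the fits without 1 array.

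Ccl6, Ccl8 and Ccl9, chemokines made by macrophages, peaked on chromium restriction replicate 1. They were at 9.16, 7.58 and 9.91 there, in that order. On the other chromium restriction arrays Ccl6 was at 8.44 and 8.20, Ccl8 at 6.14 and 6.01 and Ccl9 at 9.46 and 9.03. Control replicate 1 held the lowest value of each: 7.58 for Ccl6, 5.97 for Ccl8 and 8.56 for Ccl9. On control replicates 2 and 3 Ccl6 was at 8.39 and 8.66, Ccl8 at 6.44 and 6.37 and Ccl9 at 9.52 and 9.33. The groups overlapped for each of these genes. The mean of 9 measured macrophage markers also had its highest value on chromium restriction replicate 1 (8.97; 8.57 and 8.46 on replicates 2 and 3) and its lowest value on control replicate 1 (8.21; 8.61 and 8.56 on controls 2 and 3). The single markers were less uniform. Mpeg1 was highest on chromium restriction replicate 3, Itgax on chromium restriction replicate 2 and Cd163 on control replicate 2, and the others on chromium restriction replicate 1. Control replicate 1 held the lowest value of 5 of the 9 markers. Whether macrophage content accounts for these chemokine values was not tested. Of the 9 CC chemokines, 5 had their lowest value on control replicate 1, as did 15.6% of all genes. The difference of Ccl8, 0.32 over all arrays, was -0.19 without chromium restriction replicate 1.

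Ccl5, a chemokine of T and NK cells, was at 7.11, 9.01 and 7.29 on the chromium restriction arrays and at 7.44, 7.38 and 7.53 on the controls. A single array, replicate 2, was high, and the other chromium restriction arrays lay below every control. The difference was 0.35 over all arrays and -0.25 without replicate 2. With a covariate, the mean level of 7 liver genes, it was 1.48, with a limma adjusted p of 0.0317 (0.239% of all genes were called in it); that fit rests mostly on replicate 2, since replicates 1 and 3 were the arrays high in liver transcripts. The mean of 11 T and NK cell markers was 6.41 on replicate 2 and 5.46 to 5.64 on the other 5 arrays. On replicate 2, 10 of 11 markers lay above every control, as did 18.8% of all genes. The part of T and NK cells in the Ccl5 value was not tested. Among the other CC chemokines, Ccl3 differed by 0.078, Ccl4 by -0.07 and Ccl11 (eotaxin, an attractant of eosinophils) by -0.18, all with overlapping groups.

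The CXC chemokines were split, 4 of 8 higher and 4 lower by sign, with a median log2 difference of 0.027 and 0 of 8 past the test. The neutrophil attractants Cxcl1, Cxcl2 and Cxcl5 differed by 0.088, -0.0065 and -0.11. The interferon-induced T cell attractants Cxcl9 and Cxcl10 differed by -0.40 ± 0.31 and 0.061 ± 0.098 (SE, n = 3, adjusted p = 0.943 and 0.991). For Cxcl9 the chromium restriction arrays were at 8.94, 9.62 and 9.86 and the controls at 10.04, 9.36 and 10.21. Replicate 1 was the lowest array, and the groups overlapped. The difference was -0.13 without chromium restriction replicate 1 and -0.65 without control replicate 2.

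Cxcl12, made by stromal cells and known for retaining leukocytes through Cxcr4, was at 9.24, 9.19 and 9.11 against 9.65, 8.68 and 8.95. The controls lay on both sides of the chromium restriction arrays. The difference was 0.087, and -0.12 without control replicate 2. Cxcl14, a chemokine of fibroblasts and epithelia, was at 6.54, 6.20 and 7.18 against 6.50, 6.32 and 6.72. It differed by 0.13 with all arrays and by -0.14 without chromium restriction replicate 3, which was the highest array.

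Cxcl13, the B cell attractant, spread most widely of the CXC chemokines. It was at 7.28, 10.61 and 7.91 on the chromium restriction arrays and at 8.60, 9.87 and 9.01 on the controls. Replicate 2 was the highest array and replicates 1 and 3 were the lowest, below every control. The difference was -0.56 ± 0.87 (SE, n = 3, adjusted p = 0.991), and it became -1.57 without replicate 2 (adjusted p = 0.189) and 1.45 when replicates 1 and 3 were both left out. The mean of 8 measured B and plasma cell markers was 7.57 on replicate 2 and 6.05 to 6.35 on the other arrays. On replicate 2, 7 of 8 markers lay above every control, where 18.8% of all genes did. The part of B cells in the Cxcl13 values was not tested. Ccl5, Cxcl13 and Il33 were singled out after their values were seen.

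**Figure D2:**
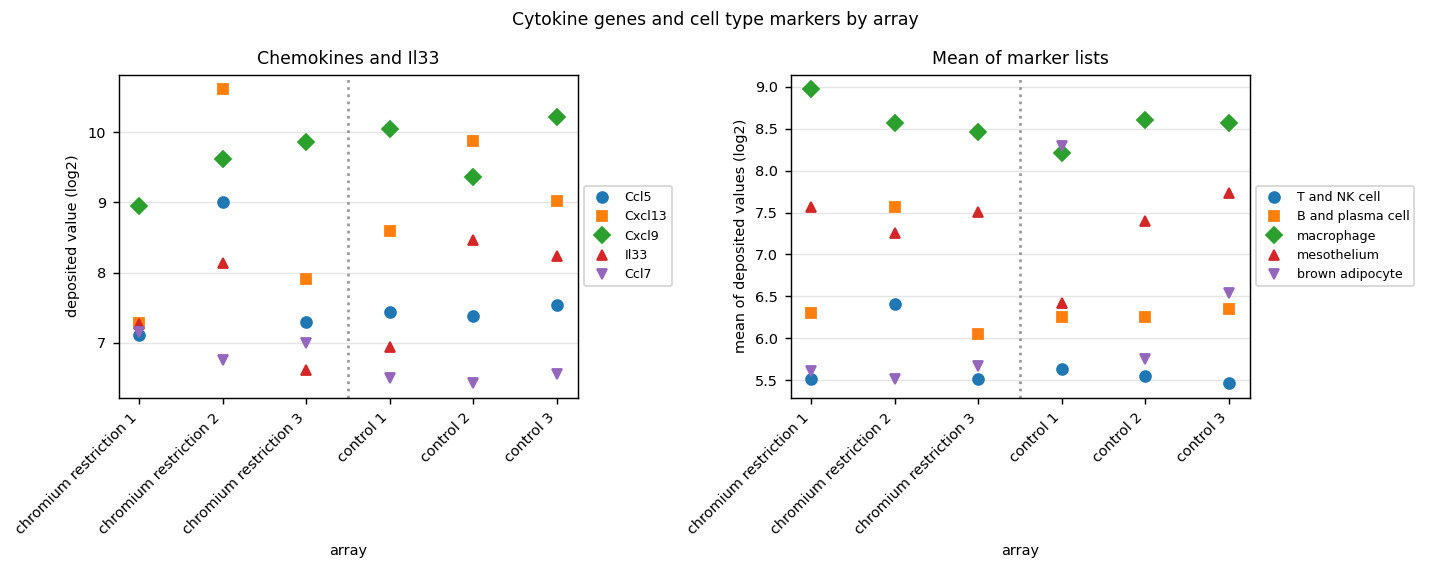
Left, deposited log2 values of Ccl5, Cxcl13, Cxcl9, Il33 and Ccl7 (vertical axis) on each array (horizontal axis); right, mean log2 value of 5 cell type marker lists on the same arrays. Chromium restriction replicate 2 stands highest for Ccl5 (9.01) and Cxcl13 (10.61) and for the T and NK cell (6.41) and B and plasma cell (7.57) lists, while Ccl7 lies higher on all chromium restriction arrays than on any control.

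Both measured inducible enzymes were higher by sign and neither passed. Nos2, inducible nitric oxide synthase, differed by 0.29 ± 0.16 (SE, n = 3, adjusted p = 0.870), mostly through chromium restriction replicate 3 at 6.39, where the other 5 arrays lay between 5.69 and 5.92. Ptgs2, cyclooxygenase 2, differed by 0.11 ± 0.19 (SE, n = 3, adjusted p = 0.991) with overlapping groups.

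Of the 5 acute-phase genes 3 (Saa2, Hp and Lcn2) lay higher on replicates 1 and 3, the arrays high in Alb, than on all other arrays, as did 8.31% of all genes. By sign 4 of 5 were higher and 1 was lower, with a median log2 difference of 0.65 over all arrays and 0.040 on replicate 2 against the controls. None passed the test with all 6 arrays. Saa2, a serum amyloid A gene of the liver, was at 8.06, 4.90 and 7.42 on the chromium restriction arrays and at 4.97, 4.91 and 4.71 on the controls. Replicates 1 and 3 were high and replicate 2 was at control level. The difference was 1.93 ± 0.77 (SE, n = 3, adjusted p = 0.817). Without replicate 2 it was 2.88 (adjusted p = 0.00199), and without replicates 1 and 3 it was 0.040. All values other than those of replicates 1 and 3 lay below the array median, so no fold is given.

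Hp, which encodes the haemoglobin-binding protein haptoglobin, was at 12.46, 10.57 and 12.02 on the chromium restriction arrays and at 10.75, 10.82 and 10.77 on the controls. Replicates 1 and 3 were above every control, and replicate 2 was below every control. The difference was 0.90 ± 0.46 (SE, n = 3, adjusted p = 0.844), 1.46 without replicate 2 (adjusted p = 0.00755) and -0.21 without replicates 1 and 3. Hp and Saa2 were the 2 of 35 genes that passed the test when replicate 2 was left out, a fit that called 1.98% of all genes. With that mean of liver genes in the fit, which then rests mostly on replicate 2, Hp differed by -0.15 (adjusted p = 1.0).

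Saa3, the serum amyloid A gene made by fat cells and macrophages, did not follow Alb. It was at 7.94, 8.15 and 8.35 on the chromium restriction arrays and at 7.35, 7.86 and 7.29 on the controls. All 3 chromium restriction arrays lay above all controls, and replicate 2, with Alb below every control, lay above replicate 1. The difference was 0.65 ± 0.18 (SE, n = 3 per group), 1.57-fold, with an adjusted p of 0.725 (unadjusted p = 0.0117, limma). It was 0.54 to 0.83 without any single array and 0.65 on replicate 2 alone. With the liver genes as a covariate, a fit that again rests mostly on replicate 2, it was 0.67. It did not pass the test over all genes in any of these fits, with adjusted p from 0.330 to 1.0.

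Lcn2, an iron-scavenging lipocalin of fat cells and neutrophils, was at 6.84, 5.99 and 6.14 against 5.74, 6.11 and 5.68. Replicates 1 and 3 lay above all other arrays, replicate 3 only just above control replicate 2. The difference was 0.48 ± 0.24 (SE, n = 3, adjusted p = 0.844) and 0.22 without replicate 1. It was 0.15 without replicates 1 and 3. With the liver genes as a covariate, a fit that again rests mostly on replicate 2, it was also 0.15. Orm1, a gene of the plasma glycoprotein orosomucoid, was the acute-phase gene of opposite sign, at 10.13, 10.65 and 10.28 against 10.30, 10.89 and 10.81. Replicates 1 and 3 lay below every control, and replicate 2 lay within the control range. Its difference was -0.31 ± 0.20 (SE, n = 3, adjusted p = 0.911). Orm1 has close copies in the mouse, and the sources used here do not say how far its probe set separates them.

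**Figure D3:**
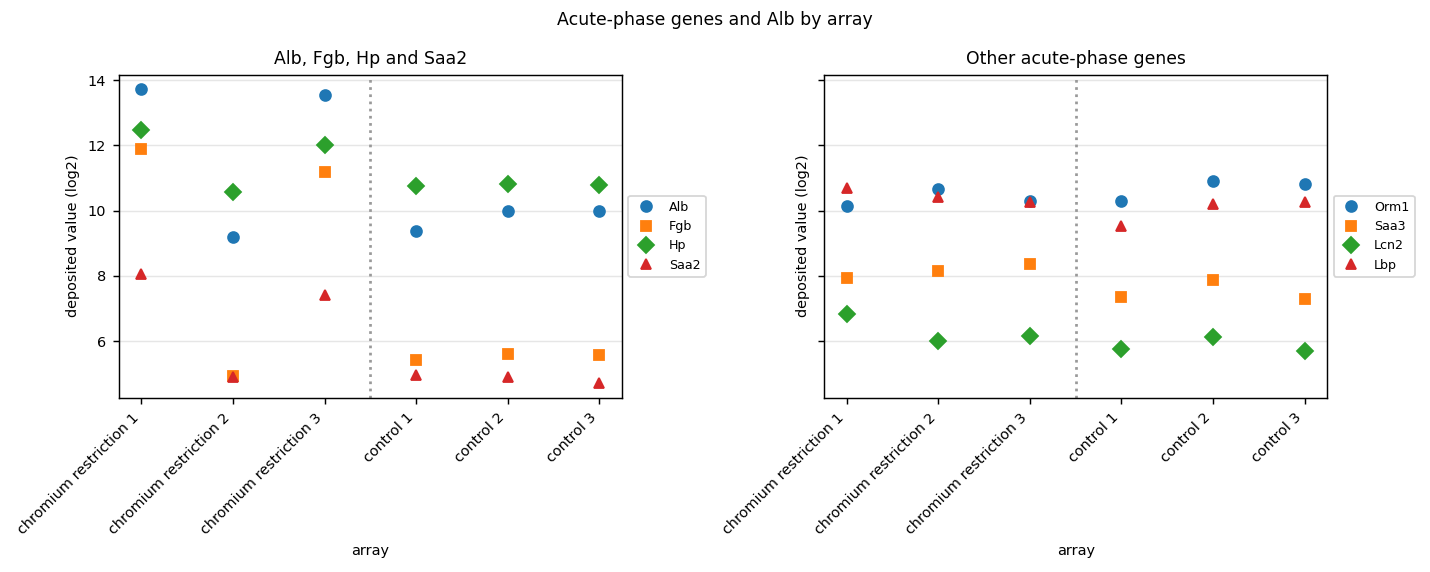
Deposited log2 values (vertical axis) of Alb and 3 acute-phase genes (left) and of 4 other acute-phase genes (right) on each array (horizontal axis). Alb, Fgb, Hp and Saa2 are higher on chromium restriction replicates 1 and 3 than on any other array, whereas Saa3 is above the controls on all 3 chromium restriction arrays and Orm1 is lowest on replicates 1 and 3.

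The receptors and NF-kappaB proteins were lower by sign in 3 of 3 genes, with a median log2 difference of -0.20, and 0 of 3 passed. Of all 22180 genes 12602 were lower by sign. Tlr2, a receptor for bacterial lipoproteins, was at 6.02, 6.09 and 5.99 against 6.10, 6.18 and 6.34. The groups did not overlap, but replicate 2 and control replicate 1 nearly touched. The difference was -0.18 ± 0.087 (SE, n = 3, adjusted p = 0.833). Tlr4, the receptor for lipopolysaccharide, was at 7.47, 7.76 and 7.36 against 7.72, 7.80 and 7.73. Replicates 1 and 3 were below every control and replicate 2 was among them, and the difference of -0.22 became 0.0064 without replicates 1 and 3. Nfkbia, whose product holds NF-kappaB in the cytoplasm and whose gene is itself an NF-kappaB target, was at 9.12, 9.34 and 9.40 against 9.66, 9.56 and 9.25. Control replicate 3 lay among the chromium restriction arrays, and the difference was -0.20 ± 0.13 (SE, n = 3, adjusted p = 0.915). It was -0.12 without chromium restriction replicate 1, -0.12 without control replicate 1 and -0.32 without control replicate 3.

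**Figure D4:**
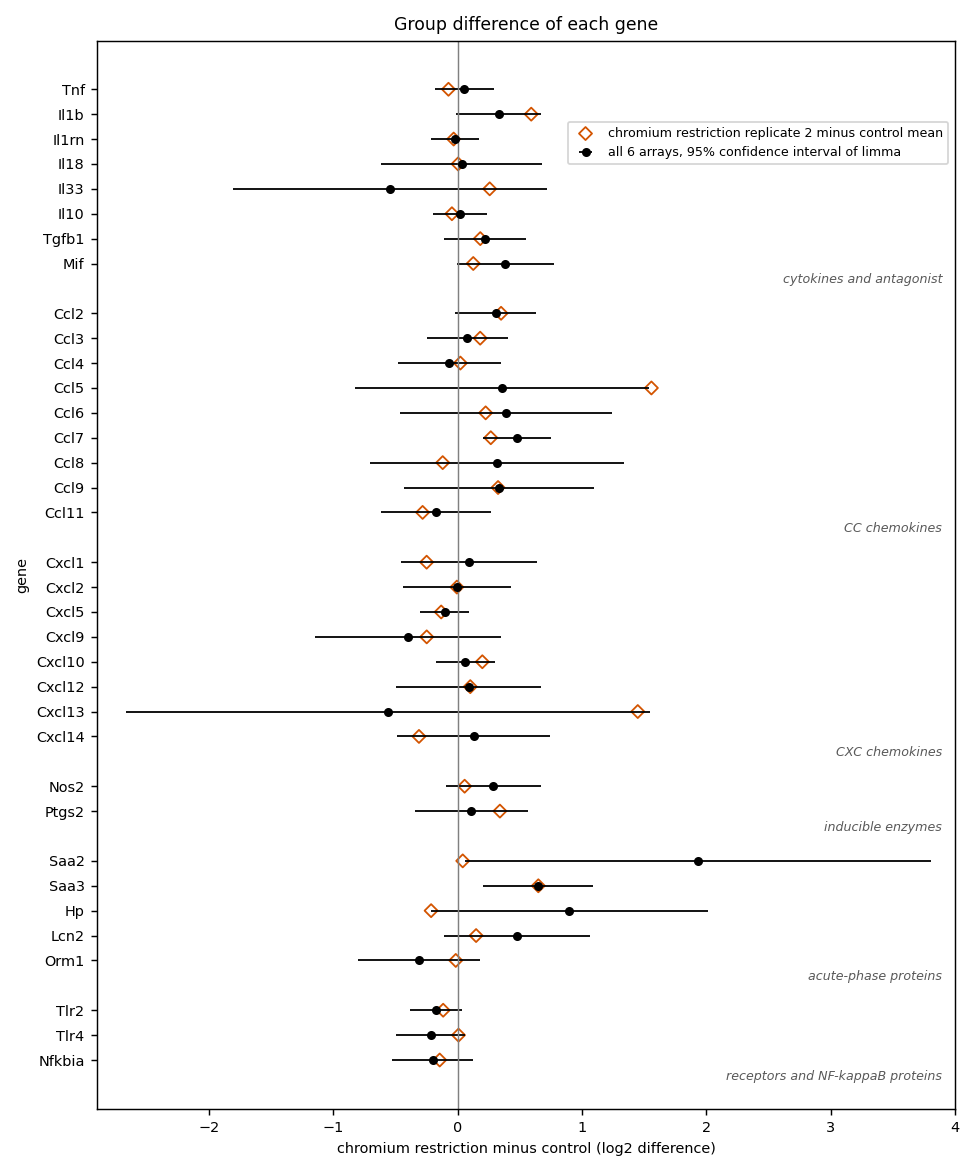
Log2 difference, chromium restriction minus control (horizontal axis), of each gene (vertical axis, grouped by role); black points with bars are limma estimates from 6 arrays with 95% confidence intervals, and open diamonds are replicate 2 minus the mean of the 3 controls. Point and diamond coincide near 0.65 for Saa3 and lie far apart for Saa2 (1.93 and 0.040), Ccl5 (0.35 and 1.56) and Cxcl13 (-0.56 and 1.45).

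Other genes of these pathways were taken from 4 lists. With 6 arrays limma called 0 of their 66 measured genes at an adjusted p of 0.05. At an unadjusted p under 0.05, 5 were higher and 1 was lower, where 2.42% of all genes were higher and 3.53% lower. Of 17 receptors of cytokines and chemokines 12 were higher and 5 lower by sign, with a median log2 difference of 0.081. An unadjusted p under 0.05 was found for 4, all higher, where 2.42% of all genes were higher with such a p. Cxcr4, the receptor of Cxcl12, was at 7.31, 7.65 and 7.005 on the chromium restriction arrays and at 6.36, 6.56 and 6.25 on the controls. Every chromium restriction array was above every control, and the difference was 0.93 ± 0.18 (SE, n = 3, adjusted p = 0.414). Il10ra, a chain of the interleukin 10 receptor, and Ccr2, the receptor of Ccl2 and Ccl7, differed by 0.54 ± 0.13 and 0.46 ± 0.16 (SE, n = 3, adjusted p = 0.595 and 0.812), also without overlap. Of the 17 receptors 3 were higher without overlap, as were 3.53% of all genes. Tnfrsf1b, a receptor of tumour necrosis factor, differed by 0.38 ± 0.15 (SE, n = 3, adjusted p = 0.817) with overlapping groups. On replicate 2 against the controls the differences were 1.25 for Cxcr4, 0.80 for Il10ra and 0.28 for Ccr2. Cxcr4 and Il10ra are also expressed by lymphocytes, whose markers were highest on replicate 2; their part in these values was not tested.

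Of 26 genes of Toll-like receptor and NF-kappaB signalling 12 were higher and 14 lower by sign, with a median log2 difference of -0.015. Rel, an NF-kappaB subunit of lymphoid and myeloid cells, was higher on all chromium restriction arrays (7.26, 7.54 and 7.11 against 6.86, 6.77 and 6.78), by 0.50 ± 0.12 (SE, n = 3, adjusted p = 0.628). The adaptor genes Tab1 and Tirap differed by -0.27 ± 0.090 and -0.27 ± 0.12 (SE, n = 3, adjusted p = 0.772 and 0.817). Rel was the 1 gene of the 26 that was higher without overlap, and 3 were lower without overlap: Tab1, Ticam1 and Traf6. Of all genes 3.53% were higher and 6.06% lower without overlap. Tnfrsf1b, Ticam1 and Traf6 were named after their values were seen. The 7 inflammasome genes had a median log2 difference of 0.029, and those with the smallest p, Gsdmd, Casp4 and Nlrc4, differed by 0.20, -0.18 and -0.10. Of 16 other acute-phase plasma protein genes 10 lay above all other arrays on both replicates 1 and 3 (8.31% of all genes). Those 10 passed the test when replicate 2 was left out, a fit that called 1.98% of all genes. That fit compares replicates 1 and 3 with the controls, so the counts are not independent. Fgb, 1 of the 10, is also a hepatocyte marker and a liver gene of the covariate. Fgg, a fibrinogen chain, was at 11.20, 4.79 and 10.54 against 4.85, 4.95 and 5.07, Hamp (hepcidin) at 10.65, 4.52 and 10.93 against 4.55, 4.51 and 5.57, and Itih4 at 10.46, 5.64 and 9.78 against 5.999, 5.70 and 6.13. The part of hepatocyte RNA in these values, and in those of Saa2 and Hp, was not tested.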

How the data were processed

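Total RNA of adipose tissue was labelled with biotin and hybridised to 6 arrays, per the labels. The deposited log2 values (33793 probe sets) were used as they are; the sources used here do not state the log base, summarisation or normalization, and log2 was inferred from the range of the values. The platform annotation named the probe sets: it gave 1 symbol for 23521, several for 1814 and none for 8458; the probe set with the highest mean stood for a gene. All 35 Entrez identifiers were found in the RefSeq table of GRCm38.p6. Differences were fitted with limma 3.58.1 (lmFit, eBayes) in R 4.3.3 over 22180 genes, two-sided, with Benjamini-Hochberg adjustment; errors are SE of limma or SD, n = 3 arrays per group, and the number of arrays limits the precision. The scripts were tested on simulated data. Members and lists were chosen with earlier results of these data known. Values on every array are given for members with an unadjusted p under 0.05, members whose groups did not overlap and a fixed set. Those of Ccl5, Ccl6, Ccl8, Ccl9, Cxcl9, Cxcl13, Il33 and Mif are given outside this rule. Up to 3 genes per pathway list, those with the smallest p, are named, and exceptions are stated. Alternatives covered normalization, filters, eBayes options, array weights, probe set choice, the replicate number as a block, arrays left out, liver genes as a covariate, and leaving out 64 probe sets in which 183 of 202758 values carry more digits than a single-precision number needs.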

Additional observations from a re-analysis of the deposited data

Results flagged for a closer look

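A probe set annotated to both Saa1 and Saa2 belongs to no gene of the comparison, and its signal stood above the controls on 2 arrays. It was at 7.08, 4.45 and 6.98 on chromium restriction replicates 1, 2 and 3 and at 4.52, 4.67 and 4.60 on control replicates 1, 2 and 3. It was high on the arrays where Saa2, Hp and Alb were high. The promoters of the 2 genes are 95.3% identical over the stretches compared, and which of them gives the signal was not tested.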

How the results depend on the processing

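Of 583 differences of the 35 members under 17 alternatives, 535 kept their direction and their side of the threshold, 3 newly passed it and 45 changed sign; 17 of the 35 genes never changed sign. The count of called genes was 43 with all arrays, 24 to 439 over the fits without 1 array (439 without chromium restriction replicate 2), 6 without both arrays high in liver transcripts, 0 without the probe sets with extra digits and 0 with the replicate number as a block. No label says that the numbers pair the arrays, and the deviations of same-numbered arrays correlated at -0.12, -0.095 and 0.078 across genes for numbers 1, 2 and 3. The count of the 35 members past the test was 0 to 2 without 1 array (Saa2 and Hp, without chromium restriction replicate 2) and 1, Ccl5, with the liver covariate; that of pathway genes was 0 to 10 without 1 array, the 10 coming without chromium restriction replicate 2. Members with an unadjusted p under 0.05 numbered 3, but 9 with array weights, 5 with quantile normalization, 6 with the replicate block and 2 to 9 without 1 array. Of all genes 5.95% had such a p in the main fit. That share was not counted under the alternatives, so these counts cannot be read as a result about the members. The median difference of the members, 0.087, was 0.22 with dim genes left out. That filter drops members and leaves the difference of each kept gene unchanged, so the shift reflects which members remain. The median of the acute-phase members, 0.65, was 0.15 with the liver covariate and 0.040 without both arrays high in liver transcripts. Without those arrays the sign changed for Hp (-0.21), Cxcl14 (-0.31), Cxcl13 (1.45), Cxcl1 (-0.25), Ccl8 (-0.12), Ccl4 (0.021), Il33 (0.26), Il10 (-0.047), Tnf (-0.075) and Tlr4 (0.0064), and with the liver covariate for Hp (-0.15), Cxcl14 (-0.26), Cxcl13 (1.32), Cxcl1 (-0.20), Ccl8 (-0.17), Ccl4 (0.025), Il33 (0.13), Il18 (-0.042), Il10 (-0.035) and Tnf (-0.060). Il10 was at -0.0005 with median centring, and with array weights Il1rn was at 0.018 and Ptgs2 at -0.0026. Where leaving out 1 array changed the sign, the differences ran from -0.033 to 0.20 for Ccl3, -0.21 to 0.12 for Ccl4, -0.25 to 0.70 for Ccl5, -0.19 to 0.60 for Ccl8, -0.12 to 0.26 for Cxcl1, -0.12 to 0.16 for Cxcl2, -0.0078 to 0.11 for Cxcl10, -0.12 to 0.37 for Cxcl12, -1.57 to 0.10 for Cxcl13, -0.14 to 0.35 for Cxcl14, -0.040 to 0.086 for Il10, -0.23 to 0.33 for Il18, -0.070 to 0.011 for Il1rn, -0.058 to 0.24 for Ptgs2 and -0.0091 to 0.12 for Tnf. The causes were not tested. Fits without both liver-rich arrays compare 1 array with 3 and assume that it varies like the controls. The fit with the liver covariate rests mostly on that same array, so its values are not separate evidence.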
